A study of Mus musculus with 8 samples.

Results

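The transcripts examined were those of 8 repressors of the circadian clock, Per1, Per2, Per3, Cry1, Cry2, Ciart, Bhlhe40 and Bhlhe41, chosen by gene symbol among the 55487 genes of the count table. Each of the 8 was found and tested. According to the study, the RNA came from the stromal vascular fraction of subcutaneous MC38 colorectal tumors. This fraction is described as the cells left after GFP-labelled tumor cells were removed by sorting. The hosts were Bmal1+/+ mice (n = 4 libraries) and Bmal1-/- mice (n = 4 libraries), bred from heterozygous founders, and the implanted MC38 cells did not carry the deletion. The deletion is carried by the whole body rather than by a chosen stromal cell type. Age and sex of the mice and the time of day of collection are not given in the sources used here, and nothing says whether the libraries of a label came from separate litters or days, so p-values measure only the spread between these libraries.

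In mammals CLOCK and BMAL1 bind together to E-box sequences and switch on genes that include their own repressors. PER and CRY proteins accumulate, enter the nucleus and silence CLOCK and BMAL1 until they are degraded, which closes a daily loop. CHRONO, encoded by Ciart, and the DEC proteins, encoded by Bhlhe40 and Bhlhe41, repress the same activators by other routes. E-boxes, D-boxes bound by DBP and its relatives, and elements bound by the REV-ERB and ROR receptors set different phases for different repressors, and Cry1 is the textbook case of a gene that responds to more than a single kind of element. Because their transcripts cycle over the day, a single time of collection samples a single phase.

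Promoter sequences are shown for 4 repressors: Ciart and Per3, whose windows held several matches of a single motif, and the cryptochrome pair, whose ratio differed between the labels. Windows of 300 bases, from 250 bases before the transcription start to 50 after it, were read from RefSeq on build GRCm38.p6, 5′ to 3′ on the strand of the gene, and 6 of the 8 genes had a window. Per2 and Bhlhe40 had none. Capitals mark the E-box CACGTG, the related E′-box (CACGTT or AACGTG) and the D-box, searched on both strands.
Ciart, chr3:95882179-95882478, minus strand: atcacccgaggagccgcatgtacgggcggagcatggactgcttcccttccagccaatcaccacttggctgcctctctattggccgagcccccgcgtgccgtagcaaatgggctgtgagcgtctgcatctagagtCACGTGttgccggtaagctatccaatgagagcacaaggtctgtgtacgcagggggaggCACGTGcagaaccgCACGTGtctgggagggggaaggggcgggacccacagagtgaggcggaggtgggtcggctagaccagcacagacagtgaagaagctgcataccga
Per3, chr4:151044616-151044915, minus strand: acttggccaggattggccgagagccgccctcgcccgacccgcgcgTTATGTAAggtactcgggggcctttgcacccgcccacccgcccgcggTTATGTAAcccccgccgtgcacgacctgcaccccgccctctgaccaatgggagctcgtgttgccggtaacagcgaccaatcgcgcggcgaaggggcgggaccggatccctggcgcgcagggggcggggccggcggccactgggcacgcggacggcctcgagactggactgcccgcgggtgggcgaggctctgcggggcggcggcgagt
Cry1, chr10:85185005-85185304, minus strand: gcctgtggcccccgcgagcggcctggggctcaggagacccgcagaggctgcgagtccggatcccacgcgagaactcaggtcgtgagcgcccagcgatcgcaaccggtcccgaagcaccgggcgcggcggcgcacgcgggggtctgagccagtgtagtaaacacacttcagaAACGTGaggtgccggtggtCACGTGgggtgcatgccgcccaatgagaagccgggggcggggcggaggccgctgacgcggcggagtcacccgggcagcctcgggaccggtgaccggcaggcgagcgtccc
Cry2, chr2:92434020-92434319, minus strand: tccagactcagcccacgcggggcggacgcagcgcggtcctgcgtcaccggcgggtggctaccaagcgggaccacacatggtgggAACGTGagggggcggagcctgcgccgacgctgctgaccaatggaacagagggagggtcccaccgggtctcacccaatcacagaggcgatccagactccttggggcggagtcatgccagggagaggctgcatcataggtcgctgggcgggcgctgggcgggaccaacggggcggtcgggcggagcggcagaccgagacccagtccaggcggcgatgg

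The Ciart window held 3 E-boxes, which began 116, 58 and 44 bases before the start. The Cry1 window held an E-box that began 60 bases and an E′-box that began 79 bases before the start, whereas the Cry2 window held only an E′-box, 166 bases before it. The Per3 window held no E-box and 2 D-boxes, 205 and 158 bases before the start. Of the 2 Per1 windows, the upstream one held an E-box that began 166 bases before its start and the element AGGTCA read by REV-ERB and ROR receptors (on the other strand, 137 bases before), and the Bhlhe41 window held an E-box 153 bases before the start. An E-box was thus present for 4 of the 6 genes. Of all 32851 RefSeq windows of this length, 7.15% held an E-box, 4.68% an E′-box, 1.59% a D-box and 16.3% the AGGTCA element. These shares are per window and are not a matched background. The 7 windows of the 6 genes held 61.3% to 73.3% G and C bases, against a median of 52.7% over all windows. No window of these genes held the full cyclic AMP response element, which 1.79% of all windows held. A match describes letters in this window and is not evidence of binding.

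The targeted gene was checked first. Bmal1 (Arntl, ENSMUSG00000055116) ranged from 0.960 to 2.71 CPM (read counts scaled to TMM-normalized library size) with the Bmal1+/+ label and from 30.1 to 35.0 CPM with the other, which goes against the label. The latter are therefore called libraries with the Bmal1-/- label, and every direction below follows that label. The transcript counts are per gene and do not separate deleted exons from the rest. Total counts were between 14054825 and 18449143 per library, so that a floor of 3 counts corresponds to between 0.163 and 0.213 CPM, for counting error only. Markers of other cell types differed between the labels as well. The summed level of 9 hepatocyte markers, all above 3 counts in every library, ranged from 102434 to 114639 CPM in Bmal1+/+ libraries against 57952 to 64368 CPM in the others, in a fraction labelled as tumor stroma. That gap was carried by Alb, the albumin gene, with 64318 to 71872 against 12744 to 18829.8 CPM. The other 8 hepatocyte markers summed to 38117 to 42767 against 42023 to 51624 CPM, which overlap, and 2 of the 9 were higher without overlap. In every library of both labels the 9 hepatocyte markers summed to far more than the fibroblast, macrophage or endothelial markers below. The source of these hepatocyte transcripts was not tested. Sums of 8 fibroblast, 7 macrophage and 5 endothelial markers were lower without overlap, also without the most abundant gene of each list, with 133 to 213 against 100 to 105 CPM for fibroblasts and 343 to 434 against 147 to 287 CPM for macrophages. Endothelial markers summed to 132 to 164 against 76.2 to 110 CPM and 8 leukocyte markers, of which 4 had more than 3 counts in every library, to 24.2 to 29.2 against 7.40 to 16.8 CPM. Without Ptprc, the pan-leukocyte gene CD45, the other 7 leukocyte markers overlapped at 3.90 to 5.25 against 2.98 to 4.81 CPM. The summed ranges of 6 perivascular and 7 epithelial markers overlapped. Without Rgs5 the other perivascular markers summed lower (10.5 to 17.9 against 8.47 to 9.14 CPM), but only 1 of the 6 was singly lower without overlap. Singly, 5 of 8 fibroblast, 5 of 7 macrophage, 3 of 5 endothelial and 3 of 8 leukocyte markers were lower without overlap, and 0 higher. Of all genes tested, 16.8% were lower without overlap. Without Krt8 the other epithelial markers summed higher (68.7 to 83.4 against 85.9 to 159 CPM), but that list was split. Of its 7 genes 1, Cdh1, was higher without overlap, whereas Epcam and, near the floor, Vil1 were lower without overlap. Cspg4, Cdx2 and Krt20 had at most 3 counts everywhere. Xist ranged from 844 to 1095 CPM in Bmal1+/+ libraries and reached at most 0.749 CPM in the others, where Ddx3y of the Y chromosome had 58.1 to 61.2 CPM against 0, so sex transcripts and label cannot be told apart. Replicate 4 of libraries with the Bmal1-/- label stood apart with 36109.7 CPM on 7 acute-phase genes, against at most 4246 CPM elsewhere. The part of these differences in the values of the repressors was not tested, and in bulk RNA fewer cells of a type and less RNA per cell cannot be told apart.

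The comparison asked how the clock's own repressors differ between the host genotypes. Of the 8 repressors, 5 were lower (Per2, Per3, Ciart, Bhlhe40 and Bhlhe41) and 1 was higher (Cry1) in libraries with the Bmal1-/- label by edgeR's quasi-likelihood test at a Benjamini-Hochberg adjusted p under 0.05. The same rule called 31.1% of all 14353 genes tested, 16.2% lower and 14.9% higher. Under the study's criterion, an absolute log2 fold change above 1 with an unadjusted p below 0.05, 4 repressors were lower and 1 was higher, against 8.71% and 5.41% of all genes (14.1% in either direction). Ranges of CPM did not overlap between the labels for 4 lower repressors and for Cry1, and for 33.4% of all genes tested. Each count of lower repressors includes Bhlhe41. With at most 3 counts in libraries with the Bmal1-/- label, a test of Bhlhe41 could hardly find no difference. The median log2 fold change was -0.96 over the 8 repressors and 0.02 over all genes. The former also includes Bhlhe41 and lies between the values of Per2 (-1.18) and Per1 (-0.74, not called). The direction was thus not shared by all 8 genes.

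**Figure D1:**
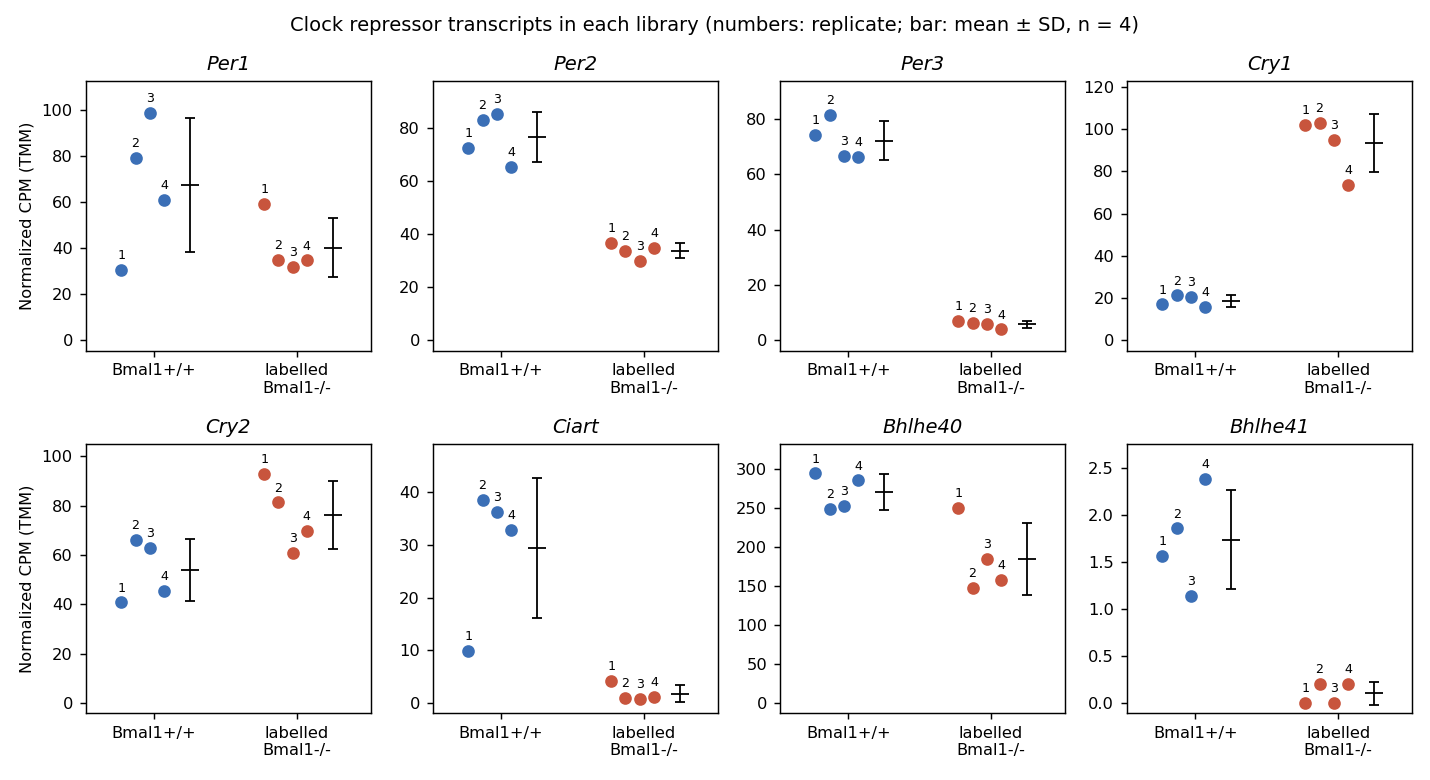
Normalized CPM (vertical axes, linear) of the 8 repressors in each library, with Bmal1+/+ in blue, libraries with the Bmal1-/- label in red, replicate numbers above the points, and mean ± SD (n = 4) as black bars. Per2, Per3, Ciart and Bhlhe41 separate downward and Cry1 upward, whereas for Per1 replicate 1 of Bmal1+/+, at 30.6 CPM, lies below all 4 libraries of the other label.

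The period genes encode the PER proteins, the scaffold of the repressive complex. Per2 and Per3 were lower by unequal amounts and Per1 was not called. Per3 (ENSMUSG00000028957, chromosome 4 of GRCm38 from 151003652 to 151044665, minus strand) had 74.3, 81.4, 66.6 and 66.5 CPM in Bmal1+/+ replicates 1 to 4 and 6.99, 6.30, 5.98 and 3.93 CPM in replicates 1 to 4 of libraries with the Bmal1-/- label. The groups lay far apart, and the lowest value belonged to the library with high acute-phase transcripts. The log2 fold change of Per3 was -3.63 with a standard error of 0.18 and an adjusted p of 1.3e-06 from edgeR, a 12.4-fold difference, and 101 of 14353 genes had a lower value. Without that library the log2 fold change was -3.48. Per3 lies inside the span of Camta1 on the same strand, with no shared exon base.

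Per2 (ENSMUSG00000055866, chromosome 1 from 91415982 to 91459324, minus strand), whose protein is required for normal rhythm length in mice, had 72.5, 83.3, 85.6 and 65.4 CPM in Bmal1+/+ replicates 1 to 4. In libraries with the Bmal1-/- label it had 36.8, 33.8, 30.1 and 34.8 CPM. The ranges did not overlap, but Per2 kept a mean of 33.9 ± 2.80 CPM (SD, n = 4) where Per3 kept 5.80 ± 1.32 CPM (SD, n = 4). Its log2 fold change was -1.18 with a standard error of 0.12 and an adjusted p of 9.4e-05 from edgeR, a 2.26-fold difference.

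Per1 (ENSMUSG00000020893, chromosome 11 from 69095217 to 69109960, plus strand), which also answers acutely to light and glucocorticoid signals, had 30.6, 79.1, 98.7 and 60.9 CPM in Bmal1+/+ replicates 1 to 4. In libraries with the Bmal1-/- label it had 59.2, 34.9, 31.9 and 34.7 CPM. Replicate 1 was the lowest Bmal1+/+ library and the highest of the other label, so the ranges overlapped. The log2 fold change of -0.74 had a 95% interval from -1.48 to -0.01 and an adjusted p of 0.11 from edgeR, so Per1 was not called, and the interval still holds a fall of the size of that of Per2. Without Bmal1+/+ replicate 1 the log2 fold change was -0.99 (adjusted p = 0.019 from edgeR). Without replicate 1 of both labels, a choice made after these values were seen, it was -1.23 (adjusted p = 0.0035 from edgeR), and 6 repressors were lower. The other single libraries left the adjusted p between 0.0535 and 0.28, and replicate 3 of Bmal1+/+ gave the smallest difference, -0.50.

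The cryptochromes, flavoprotein relatives of DNA photolyases that carry most of the repressive activity on CLOCK and BMAL1, were not lower: Cry1 rose and Cry2 was near the threshold. Cry1 (ENSMUSG00000020038, chromosome 10 from 85131700 to 85185064, minus strand) had 17.0, 21.3, 20.4 and 15.8 CPM in Bmal1+/+ replicates 1 to 4 and 102, 103, 94.9 and 73.5 CPM in libraries with the Bmal1-/- label. All 4 of the latter lay above all 4 of the former. The log2 fold change was 2.32 with a standard error of 0.15 and an adjusted p of 6.6e-06 from edgeR, a 5.01-fold rise that 175 of 14353 genes exceeded. It was the only repressor called higher by edgeR's quasi-likelihood test on all 8 libraries, and it lay between 2.24 and 2.43 with each library left out in turn.

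Cry2 (ENSMUSG00000068742, chromosome 2 from 92403646 to 92434043, minus strand) had 40.8, 66.0, 63.0 and 45.4 CPM in Bmal1+/+ replicates 1 to 4 and 92.9, 81.3, 60.9 and 69.9 CPM in libraries with the Bmal1-/- label. Replicate 3 of the latter lay within the Bmal1+/+ range. The log2 fold change was 0.50 with a 95% interval from 0.09 to 0.92 and an adjusted p of 0.065 from edgeR, close to the threshold. Cry2 was called higher with DESeq2 (adjusted p = 0.0479), with edgeR's likelihood ratio test (adjusted p = 0.0488), without Bmal1+/+ replicate 2 (adjusted p = 0.0468) and without replicate 3 of libraries with the Bmal1-/- label (adjusted p = 0.0494). Without replicate 1 of both labels its log2 fold change was 0.28 (adjusted p = 0.3 from edgeR). A non-coding transcript on the opposite strand, D930015M05Rik, shares 295 exon bases with Cry2 and had between 8 and 19 counts.

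Ciart (ENSMUSG00000038550, chromosome 3 from 95878503 to 95882251, minus strand), whose window holds the 3 E-boxes shown above, encodes CHRONO, which binds BMAL1 and represses it without needing the cryptochromes. It had 9.87, 38.6, 36.3 and 32.9 CPM in Bmal1+/+ replicates 1 to 4 and 4.18, 0.900, 0.783 and 1.15 CPM in libraries with the Bmal1-/- label. The labels did not overlap, yet replicate 1 of each leaned toward the other, as for Per1. Counts behind these values were 164 to 603 and 11 to 67 fragments. Its log2 fold change was -4.03 with a standard error of 0.59 and an adjusted p of 8.8e-04 from edgeR, a 16.4-fold difference, and 81 genes had a lower value. An antisense transcript, C920021L13Rik, spans Ciart without sharing an exon base and had between 8 and 15 counts. Without replicate 1 of libraries with the Bmal1-/- label the log2 fold change was -4.94, and without replicate 1 of both labels it was -5.23.

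**Figure D2:**
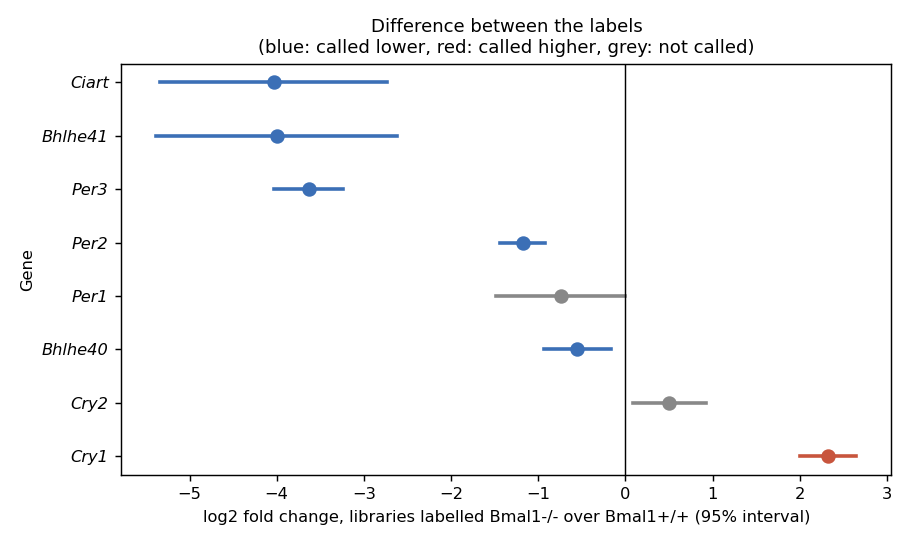
Log2 fold change of each repressor (points) with its 95% interval (lines) from edgeR's quasi-likelihood fit, libraries with the Bmal1-/- label over Bmal1+/+. Values run from -4.03 for Ciart to 2.32 for Cry1, with Per1 and Cry2 in grey as not called.

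The DEC proteins are basic helix-loop-helix factors that compete for E-boxes and respond to hypoxia and hormones as well as to the clock. Bhlhe41 (DEC2, ENSMUSG00000030256, chromosome 6 from 145858243 to 145865558, minus strand) had 26, 29, 17 and 43 counts in Bmal1+/+ replicates 1 to 4 and 0, 3, 0 and 3 counts in libraries with the Bmal1-/- label, which is at or under the floor. Summed counts of 115 and 6, each divided by the summed normalized library sizes of its label, gave a ratio of 17.4 with a 95% exact interval from 7.78 to 48.5, for counting error only. The adjusted p was 0.0012 from edgeR, whose log2 fold change of -4.00 depends on the constant added to low values and was -3.03 with a prior count of 2 and -1.54 on log2 of FPKM plus 0.1. Bhlhe41 passed the filter on low counts through its Bmal1+/+ libraries, so that a test of it could hardly find no difference. With 10 counts required in every library it was not tested, and 4 repressors were called lower, 3 of them under the study's criterion. An unclassified transcript on the opposite strand, Gm43909, shares 1280 exon bases with Bhlhe41 and had at most 5 counts.

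Bhlhe40 (DEC1, ENSMUSG00000030103, chromosome 6 from 108660629 to 108666925, plus strand) had the highest mean FPKM of the repressors. It had 294, 249, 252 and 285 CPM in Bmal1+/+ replicates 1 to 4. In libraries with the Bmal1-/- label it had 250, 147, 184 and 158 CPM, and replicate 1 lay within the Bmal1+/+ range. Its log2 fold change of -0.55, with a standard error of 0.17 and an adjusted p of 0.034 from edgeR, was the smallest that was called. An antisense transcript, 0610040F04Rik, shares 118 exon bases with it and had at most 10 counts. The call was lost with every gene kept in the fit (adjusted p = 0.057 from edgeR) and when any library other than replicate 1 of libraries with the Bmal1-/- label was left out (adjusted p between 0.0515 and 0.092 from edgeR in 7 of 8 cases). Without that library it was -0.73 (adjusted p = 0.0052 from edgeR).

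Ratios between paralogs were then taken within each library, where scaling between libraries plays no part, and compared by a two-sided exact permutation test over all 70 assignments of the labels, with adjustment over the 5 pairs. The smallest p this design allows is 0.029. The log2 ratio of Cry1 to Cry2 counts was -1.26, -1.63, -1.63 and -1.52 in Bmal1+/+ replicates 1 to 4 and 0.13, 0.34, 0.64 and 0.07 in libraries with the Bmal1-/- label. All 4 ratios of the former were below all 4 of the latter, a difference of 1.80 (exact p = 0.029, adjusted p = 0.036 by permutation). In FPKM, which is per length, Cry1 made up 37.1 ± 2.88% (SD, n = 4) of the summed cryptochrome level in Bmal1+/+ libraries and 67.2 ± 3.83% (SD, n = 4) in the others, while that sum was 12.2 ± 2.36 and 34.0 ± 5.44 FPKM (SD, n = 4).

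Within the period family the log2 ratio of Per2 to Per3 counts lay between -0.04 and 0.36 in Bmal1+/+ libraries and between 2.33 and 3.13 in libraries with the Bmal1-/- label, a difference of 2.48 (exact p = 0.029, adjusted p = 0.036 by permutation). The ratio of Per1 to Per3 differed by 2.99 with the same p, whereas that of Per1 to Per2 differed by 0.51 with overlapping ranges (exact p = 0.26, adjusted p = 0.26 by permutation). Per3 thus fell relative to both paralogs, and a difference between Per1 and Per2 was not detected with 4 libraries a label. Per3 made up 21.7 ± 4.19% (SD, n = 4) of the summed period FPKM in Bmal1+/+ libraries and 4.17 ± 0.909% (SD, n = 4) in the others, as the sum went from 26.5 ± 4.78 to 11.2 ± 2.16 FPKM (SD, n = 4). The ratio of Bhlhe40 to Bhlhe41 differed by 3.68 on the log2 scale (exact p = 0.029, adjusted p = 0.036 by permutation), a size that rests on the constant of 0.5 counts added to values at the floor and was 1.00 on log2 of FPKM plus 0.1. With Bhlhe41 at or under the floor in libraries with the Bmal1-/- label, this test could hardly find no difference, so its p adds no support.

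**Figure D3:**
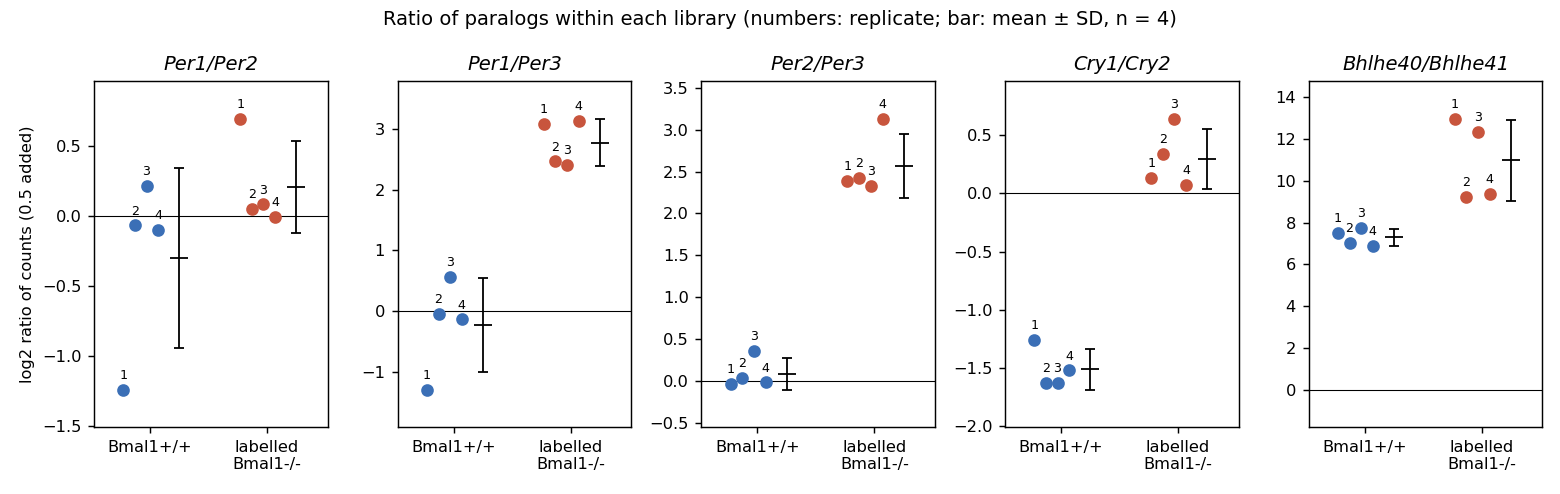
Log2 ratio of counts (0.5 added to each) of 5 paralog pairs within each library, Bmal1+/+ in blue and libraries with the Bmal1-/- label in red, with replicate numbers and mean ± SD (n = 4). The Cry1/Cry2 ratio passes from below 0 to above 0, and only Per1/Per2 overlaps between the labels.

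Levels of different genes were compared in the deposited FPKM, whose gene lengths exceed the exon union of the annotation unevenly, from 1.01 times for Per2 to 1.87 times for Ciart. In Bmal1+/+ libraries Bhlhe40 was highest, with 41.7 FPKM on average, above Per2 with 12.8, Per1 with 8.05, Cry2 with 7.70, Ciart with 6.85, Per3 with 5.62, Cry1 with 4.47 and Bhlhe41 with 0.235 FPKM. From Per2 down to Per3 each gene overlapped its next neighbour over the 4 libraries, so the order among these 5 is not settled, whereas the gaps beneath Bhlhe40, Per3 and Cry1 were free of overlap. In libraries with the Bmal1-/- label Cry1 moved from the seventh to the second place, with 22.9 FPKM against 29.1 FPKM for Bhlhe40, and the ranges of these 2 genes overlapped. Cry2 followed with 11.2, Per2 with 5.78 and Per1 with 4.91 FPKM, and then, after a gap, Per3 with 0.462, Ciart with 0.421 and Bhlhe41 with 0.0142 FPKM. Neighbours overlapped for Per2 and Per1 and for Per3 and Ciart. With exon union lengths, tried after these lengths were seen, Ciart took the third place and Per1 the fourth in Bmal1+/+ libraries, and in the others Per1 passed Per2, Ciart passed Per3, and Cry1 no longer overlapped Bhlhe40. Cry1 kept the seventh and the second place, and its share of the cryptochrome sum was 39.9 ± 2.96% and 69.8 ± 3.65% (SD, n = 4).

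**Figure D4:**
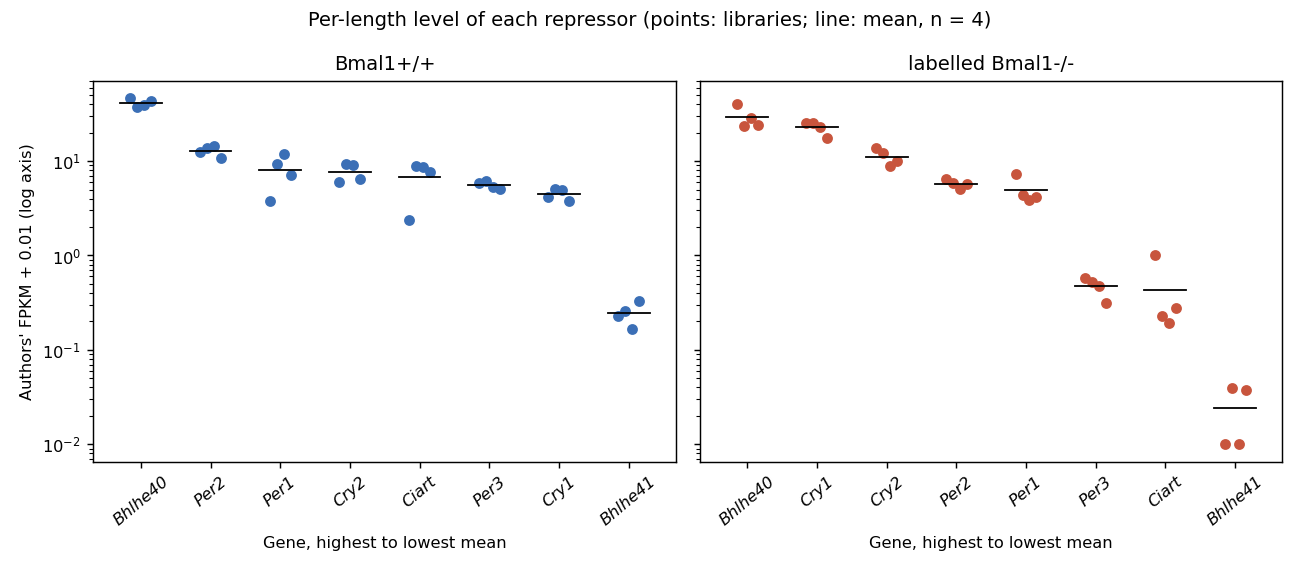
The authors' FPKM plus 0.01 on a log axis for each repressor, ordered by mean within Bmal1+/+ libraries (left) and within libraries with the Bmal1-/- label (right), with points for libraries and lines for means (n = 4). Cry1 stands next to last at 4.47 FPKM on the left and second at 22.9 FPKM on the right, and 3 genes lie below 1 FPKM on average on the right.

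Spread within a label differed among the repressors. The coefficient of variation in Bmal1+/+ libraries was 8.42% for Bhlhe40, 9.90% for Per3, 12.3% for Per2, 14.0% for Cry1 and 23.4% for Cry2, but 43.0% for Per1 and 45.0% for Ciart. For Per1 and Ciart replicate 1 lay farthest out, and there the log2 ratio to the median of the label was -1.19 for Per1 and -1.81 for Ciart, while Per2, Per3, Cry1 and Bhlhe40 lay between -0.13 and 0.13 and Cry2 at -0.41. In libraries with the Bmal1-/- label replicate 1 deviated upward, by 0.77 for Per1, 2.03 for Ciart, 0.55 for Bhlhe40 and 0.30 for Cry2 on the log2 scale.

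**Figure D5:**
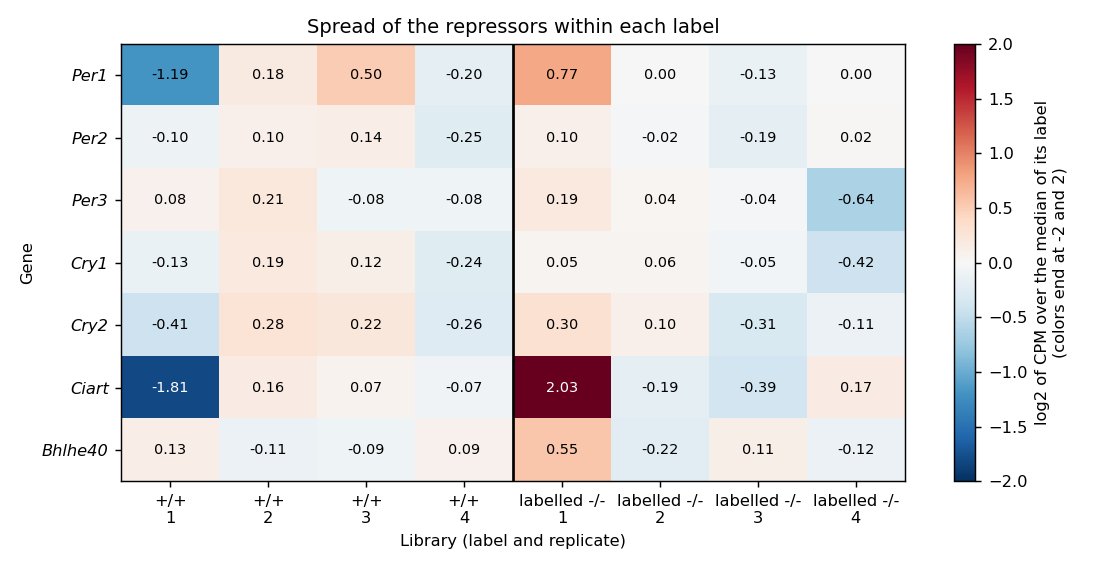
Log2 of CPM over the median of its own label for 7 repressors (rows) in each library (columns), in numbers and in color from blue (below) to red (above). Bhlhe41 is left out because of counts of 0. Replicate 1 of each label holds the largest deviations, -1.81 and 2.03, both for Ciart.

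The rest of the clock was read from 5 lists with 39 genes, of which 38 were tested, and calls follow the rule that called 31.1% of all genes, against which the counts per list are to be read. Among 4 activators, the partners that the repressors act on, 3 were higher. Clock went from 18.4 ± 3.22 to 59.4 ± 10.1 CPM (SD, n = 4). Npas2, a stand-in for CLOCK, had 0.120 to 0.223 CPM in Bmal1+/+ libraries, near the floor, and 31.2 to 42.2 CPM in the others. Npas2 passed the filter on low counts through the latter libraries, so that a test of it could hardly find no difference. Arntl is described above. Among nuclear receptors that act through the AGGTCA element, Nr1d1 and Nr1d2 were lower and Rora was not called. Nr1d2, a REV-ERB repressor, went from 145 ± 8.58 to 12.1 ± 2.87 CPM (SD, n = 4). Of 4 D-box factors, Dbp and Tef were lower, the repressor Nfil3 was higher and Hlf was not called. Of 13 kinases and ubiquitin regulators, Csnk1e and Usp2 were lower, Csnk2a2 was higher and 10 were not called. Of 13 other repressive partners, Nono was lower, Tipin was higher and 11 were not called, among them Cipc, a repressor that binds CLOCK, with 54.4 ± 10.8 and 43.8 ± 8.46 CPM (SD, n = 4). The medians of the log2 fold changes were 3.03 for the activators, -0.56 for the D-box factors, -0.02 for kinases and ubiquitin regulators and 0.09 for the other partners, against 0.02 over all genes. The median of the 4 activators includes Npas2 and lies between the values of Clock (1.69) and the targeted gene Arntl (4.38).

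Genes whose levels followed a repressor most closely were found by Pearson's r of log2 CPM plus 0.5 over the 8 libraries, for genes averaging 1 CPM or more. These points share libraries and fall into 2 labels, and r is given as a description. Per3 was followed by Gm45909 (r = 0.9988) and Cyp2b9 (r = 0.9977), Per2 by Prodh2 (r = 0.9950) and Klf4 (r = 0.9936), and Cry1 by Mup21 (r = 0.9966) and Gm10131 (r = 0.9953). Ciart was followed by Fgfr2 (r = 0.9922) and Mfsd2a (r = 0.9917), and Bhlhe41 by Bche (r = 0.9952) and Stap1 (r = 0.9946). Close neighbours were fewer for the 3 repressors whose labels overlapped, but over 2 labels a high r largely follows how cleanly a gene splits by label. Per1 was followed by Rap1gap (r = 0.9791) and Arrdc2 (r = 0.9574), Cry2 by Mug-ps1 (r = 0.9796) and Mug2 (r = 0.9742), and Bhlhe40 by Mark1 (r = 0.9788) and Lrch1 (r = 0.9745). An r above 0.95 was reached by 3 genes for Per1, 13 for Cry2 and 10 for Bhlhe40. It was reached by 100 for Ciart, 249 for Per2, 264 for Bhlhe41, 344 for Cry1 and 374 for Per3.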

How the data were processed

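Sequencing counts of 8 libraries were used, 4 of each genotype label, grouped by the sample descriptions. According to the methods of the study, the authors aligned paired-end reads to GRCm38 with HISAT2 and counted fragments per gene with StringTie; the strand setting is not given in the sources used here, and the processing notes of the submitters also name TopHat2 2.0.6 and CASAVA 1.8. The deposited counts are whole numbers without normalization. The deposited FPKM values equal count over library total over a fixed length per gene within 1% for 100% of 11442 genes checked, so they carry no TMM factor.

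For fold changes and CPM, edgeR 4.0.16 was run in R 4.3.3 after filterByExpr and TMM normalization; the quasi-likelihood model had a prior count of 0.125 and was fitted on 14353 genes with Benjamini-Hochberg adjustment over all of them. Standard errors are the log2 fold change over the square root of F. Permutation tests used SciPy 1.17.1, and figures matplotlib 3.10.9. GENCODE annotation of GRCm38 gave symbols and positions and matched 99.4% of 55487 identifiers. The fit was tested on simulated data. Libraries of a label did not duplicate one another (chi-square per degree of freedom at least 20.0). Replicate numbers showed no sign of pairing the samples, which does not exclude a pairing.

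The 8 repressors and the lists were chosen with earlier results of these data known. Genes named are the repressors, Arntl, listed clock genes and the 2 closest neighbours of each repressor; some listed clock genes are not reported here. Alternatives were DESeq2 1.42.0, limma 3.58.1 (voom, and log2 FPKM plus 0.1), other scaling, tests, filters and prior count, each library left out, and a replicate block. Leaving out replicate 1 of both labels and exon union lengths for levels were added after the data were seen.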

Additional observations from a re-analysis of the deposited data

Results flagged for a closer look

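Among 28 sets of 4 values tested for a sample far from the others (8 repressors, Arntl and 5 ratios in each label), 4 held such a sample, where chance picks out about 1 in 20 such sets. The sets share genes and libraries and are not independent, so the 2 shares cannot be compared strictly. The flags for Per1, Ciart and Per1/Per2 fell in a single library. Per1 had 59.2 CPM in replicate 1 of libraries with the Bmal1-/- label, where the next highest of the label had 34.9 CPM. Ciart had 4.18 CPM in the same library, with 1.15 CPM in the next highest. The log2 ratio of Per1 to Per2 was 0.69 in that library and at most 0.08 in the others of its label. In replicate 4 of libraries with the Bmal1-/- label, the log2 ratio of Per2 to Per3 was 3.13, with 2.42 in the next highest library. This library also had 36109.7 CPM on acute-phase genes, and the part of that in the ratio was not tested.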

How the results depend on the processing

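Per2, Per3, Cry1 and Ciart kept their direction and call under all 19 alternatives, and Bhlhe41 under all 18 in which it was tested, since it was not tested with at least 10 counts required in every library. For Bhlhe41 this adds no support, because at or under the floor in libraries with the Bmal1-/- label its test could hardly find no difference. Repressors called lower numbered 4 to 6 with libraries left out and 4 or 5 otherwise, and by the study's criterion 4 or 5 and 3 or 4. Repressors called higher were 2 with DESeq2, 2 with the likelihood ratio test and 1 to 2 with single libraries left out, in each case through Cry2. No direction of a repressor or a ratio reversed. The differences in paralog ratios lay between 0.19 and 0.68 for Per1/Per2, 2.64 and 3.25 for Per1/Per3, 2.29 and 2.58 for Per2/Per3, 1.69 and 1.89 for Cry1/Cry2 and 3.02 and 4.26 for Bhlhe40/Bhlhe41 with single libraries left out, where 7 libraries cannot give an exact p below 0.057 (adjusted p up to 0.51 for Per1/Per2 and up to 0.071 for the others). With replicate number as a block, the exact sign-flip test gave an adjusted p of 0.16 for differences of 2.99 for Per1/Per3, 2.48 for Per2/Per3, 1.80 for Cry1/Cry2 and 3.68 for Bhlhe40/Bhlhe41; 4 pairs cannot reach the threshold in that test. The block left 5 repressors lower and 1 higher. The deviations of samples with the same number correlated between -0.0642 and 0.063, which shows no sign of pairing by number but cannot exclude it. Over all genes, 1400 rather than 2135 were called higher without replicate 1 of both labels. Among the repressors only Bhlhe41 was at or under 3 counts in libraries with the Bmal1-/- label. Ciart was above that floor but low there, with 67, 13, 11 and 17 counts in replicates 1 to 4.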
